A study of Homo sapiens with 12 samples.

Results

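The genes described here encode the nuclear subunits of the 5 complexes of oxidative phosphorylation. They were chosen by symbol alone: protein-coding genes whose RefSeq symbol, matched by Entrez number, names a subunit of NADH dehydrogenase (NDUFA, NDUFB, NDUFC, NDUFS or NDUFV with a number), succinate dehydrogenase (SDHA to SDHD), the cytochrome bc1 complex (UQCR), cytochrome c oxidase (COX4 to COX8 with a letter) or ATP synthase (ATP5F1, ATP5M or ATP5P). No measured value entered this rule, though earlier results of these data were known when it was chosen. RefSeq listed 85 such genes, of which 84 were in the files, out of 23922 genes in all, and COX7B2 was not found there. Complex I had 36 members, complex II 4, complex III 9, complex IV 16 and complex V 19. Of the 84 genes, 81 passed the expression filter and were tested among 18101 genes. COX6A2, COX7A1 and COX8C did not pass it. NDUFA4, now known as a complex IV subunit, carries another RefSeq symbol and lies outside the rule, as do CYC1 and NDUFAB1. The files held 0 mitochondrially encoded genes, so the subunits made in the mitochondrion itself are not described.

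The RNA came from the human embryonic stem cell line H9, driven toward liver cells in culture. The 6 groups of 2 libraries were hepatoblasts of day 7 and hepatocytes of day 19, each treated with 0.1% DMSO as the control, with 30 nM T3 (triiodothyronine) or with 30 nM T4 (thyroxine, the prohormone with an extra iodine, which cells convert to T3). All groups came from the same line, and the labels give no genetic change. The labels do not say when hormone was added, whether hormone-treated cells also received DMSO, or whether 2 libraries of a group were separate cultures, so the p-values rest on a spread that may be only technical.

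Oxidative phosphorylation takes place at the inner mitochondrial membrane. Complexes I and II take electrons from NADH and succinate, complex III passes them to cytochrome c, complex IV hands them to oxygen, and complex V uses the proton gradient built by complexes I, III and IV to make ATP. Complex II is also an enzyme of the citric acid cycle, and it is the complex whose subunits are all encoded in the nucleus. Hepatocytes are rich in mitochondria, and thyroid hormone is known as a regulator of mitochondrial metabolism in liver, in part through the coactivator PPARGC1A.

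The promoters of complex II are shown because that complex had the largest median difference between the days among the 5. The sequences are the 250 bases before the RefSeq gene start on GRCh38.p14, the build named hg38 by the submitters' processing notes: chr5:218070-218319 on the plus strand for SDHA, chr1:17054033-17054282 on the minus strand for SDHB and chr11:112086623-112086872 on the plus strand for SDHD. Capitals mark matches to the motif letters given below, on either strand. SDHC had no entry.
SDHA: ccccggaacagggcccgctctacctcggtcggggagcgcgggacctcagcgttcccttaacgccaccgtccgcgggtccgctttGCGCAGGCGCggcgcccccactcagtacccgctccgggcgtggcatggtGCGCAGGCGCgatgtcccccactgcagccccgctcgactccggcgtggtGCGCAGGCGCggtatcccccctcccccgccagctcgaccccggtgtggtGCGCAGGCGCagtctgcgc
SDHB: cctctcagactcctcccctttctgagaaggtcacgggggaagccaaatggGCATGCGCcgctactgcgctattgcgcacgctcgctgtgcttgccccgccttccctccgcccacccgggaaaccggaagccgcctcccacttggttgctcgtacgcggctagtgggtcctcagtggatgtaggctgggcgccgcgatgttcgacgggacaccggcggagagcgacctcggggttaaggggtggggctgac
SDHD: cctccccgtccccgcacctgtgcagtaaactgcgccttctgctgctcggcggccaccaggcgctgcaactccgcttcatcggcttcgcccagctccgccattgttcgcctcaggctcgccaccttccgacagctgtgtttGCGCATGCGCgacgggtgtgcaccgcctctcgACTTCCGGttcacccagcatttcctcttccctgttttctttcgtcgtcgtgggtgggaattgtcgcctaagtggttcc
SDHA carried 4 matches to the full NRF1 site with any base allowed at its center, a form added after this sequence had been seen. SDHB carried the NRF1 core GCATGCGC, which began at position -200 before the start. SDHD carried the full NRF1 site at position -110 and, on the other strand, the ETS form CCGGAAGT at position -78, and NRF1 and the ETS factor GABPA are known regulators of respiratory chain genes. Of the 84 genes, 67 had a window of 300 bases (250 before to 50 after the start) in RefSeq's promoter table. A gene was counted if any of its windows held the letters. GCATGCGC was in 20.9% of these 67 genes and in 3.68% of all 27305 genes with a window. For the full NRF1 site, which contains this core, the shares were 5.97% and 1.52%. With any base at its center, the full site was in 25.4% against 6.98%, with SDHA itself counted in the first share. CCGGAAGT was in 17.9% against 4.95%, and the YY1 form AAGATGGCG in 13.4% against 2.14%. TATAAA was in 10.4% of the members with a window and in 14% of all genes. TCAAGGTCA, a site of the estrogen related receptors, was in 1.49% against 0.432%, and the direct repeat of the thyroid hormone receptor in 0 of 67 against 0.0256%. In complex II, 1 of the 3 genes with a window held TCAAGGTCA and 1 held the YY1 form, in both cases outside the 250 bases printed. The 27305 genes were not matched to the members for expression or base content. These are matches of letters on both strands and not measured binding.

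Each library held 18363549 to 19306181 expected counts. The members took 0.905% to 0.936% of the counts in the 6 libraries of day 7 and 0.659% to 0.785% in the 6 of day 19, so that the days did not overlap. The 10 most abundant genes took 5.48% and 5.54% of counts in DMSO at day 7 and 11.7% and 12.1% at day 19. Later results use CPM (counts relative to the TMM-scaled library total, in the usual CPM unit). In DMSO the members summed to 8016 and 8003 CPM at day 7 and to 8477 and 9184 at day 19. The direction of this difference thus depends on the scaling. With T3 the sums were 8326 and 8481, then 7416 and 7889, and with T4 8287 and 8323, then 8218 and 7581. Hepatocyte markers (10 genes, all detected) summed to 64249 to 67972 CPM in DMSO at day 19, to 2880 to 3866 with T3 and to 7409 to 8317 with T4. At day 7 they summed to 5156 to 5185 in DMSO and to 3802 to 4109 with hormone. In the same order at day 19 mesenchymal markers (8 genes) summed to 6476 to 6715, 2587 to 3423 and 3516 to 3914 CPM, intestinal markers (6 genes) to 1962 to 2128, 383 to 461 and 753 to 976 CPM, and neural markers (5 genes) to 86.3 to 89.1, 257 to 291 and 207 to 229 CPM. In DMSO at day 7 mesenchymal markers were at 378 to 386, intestinal markers at 65.7 to 66.0 and pluripotent markers (7 genes) at 1650.4 to 1668 CPM, the last falling to 145 to 154 CPM at day 19. At day 7 pluripotent markers were at 2969 to 2995 CPM with T3 and 2481 to 2509 with T4, and endothelial markers (5 genes) at 74.8 to 75.4 CPM in DMSO and 42.9 to 45.1 with hormone. These sums follow the most abundant markers. With T3 at day 19, 6 of 8 mesenchymal markers were called lower and 2 higher (27.3% and 25.1% of all genes). With T4, 5 were lower and 2 higher (21.9% and 21%). Neural markers had 2 of 4 tested called higher with each hormone and 0 lower. Between the days in DMSO, 9 of 10 hepatocyte markers were called higher and 1 lower (37.6% and 34.9%). Cell type markers thus moved in each comparison of hormone with DMSO and of the days, and their part in the results below was not tested. In these bulk libraries, fewer cells of a type and less RNA per cell cannot be told apart.

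**Figure D1:**
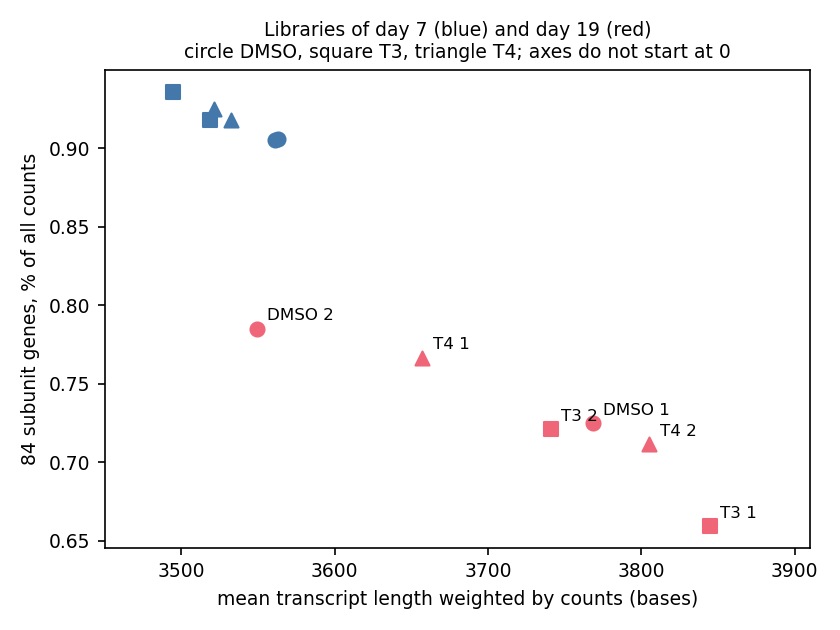
Share of all counts taken by the 84 subunit genes (vertical axis, percent) against the mean transcript length weighted by counts (horizontal axis, bases), 1 point per library. The 6 libraries of day 7 lie at 3495 to 3563 bases and those of day 19 spread from 3549 to 3845 bases. The day 19 library with the shortest mean length, DMSO replicate 2, had the highest share of its day at 0.785%, and the one with the longest, T3 replicate 1, the lowest at 0.659%.

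Most subunits are small proteins, and their transcripts are short. The median transcript length of the tested members was 834 bases against 2872 for all tested genes, and 51 of the 81 were under 1000 bases. At day 19 the members moved together between libraries of a group. In DMSO 76 of 81 were higher in replicate 2 than in replicate 1, with a median log2 difference of 0.12. With T3 76 were higher in replicate 2 (median 0.10), and with T4 only 11 were (median -0.13). All 1281 tested genes under 1000 bases had medians of 0.12, 0.05 and -0.13 for the same pairs. At day 7 the members' medians were 0.00, 0.03 and -0.01. Median differences between libraries of the same group thus reached 0.13 on the log2 scale at day 19.

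By FPKM, which is scaled to transcript length and lets genes be compared, members of complex IV and complex V were the most abundant. COX7C, a small subunit of complex IV, had a median of 617 FPKM over the 12 libraries, and COX4I1, which is among the largest nuclear subunits of that complex, 368 FPKM. ATP5F1A and ATP5F1B, the alpha and beta subunits of the catalytic head of ATP synthase, had 359.5 and 354.6 FPKM. NDUFA13 led complex I at 283 FPKM and UQCRH, the hinge protein, complex III at 213 FPKM. Complex II was lower, from 36.5 FPKM for SDHC to 60.0 for SDHD. The lowest tested members of complex I and III were NDUFA5 at 6.51 and UQCRHL, a copy of UQCRH, at 1.23 FPKM. A median above 10 FPKM was reached by 35 of 36 members of complex I, 4 of 4 of complex II, 8 of 9 of complex III, 11 of 16 of complex IV and 17 of 19 of complex V.

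Complex IV has pairs of subunit genes, a broad form and a form known from muscle, lung, testis or other single tissues. The broad form was the abundant one in every library. COX4I1 lay between 341 and 399 FPKM and COX4I2, the lung form, between 0.08 and 1.06, with 10 to 13 counts per library at day 7 and 1 to 5 at day 19. COX6A1 lay at 279 to 378 FPKM and its muscle form COX6A2 at 0 to 0.5 FPKM (0 to 4 counts). COX7A2 lay at 110.1 to 161 FPKM and the muscle form COX7A1 at 0 to 0.48 (0 to 7 counts). COX8A lay at 238 to 316 FPKM, and COX8C at 0 to 0.21 (0 to 2 counts). COX6B1 lay at 217 to 271 FPKM and the testis form COX6B2 at 0.82 to 2.66. COX7A2L, a relative of COX7A2 that takes part in joining complexes III and IV, is described with the day comparison. No library reversed the order of any of these 5 pairs.

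**Figure D2:**
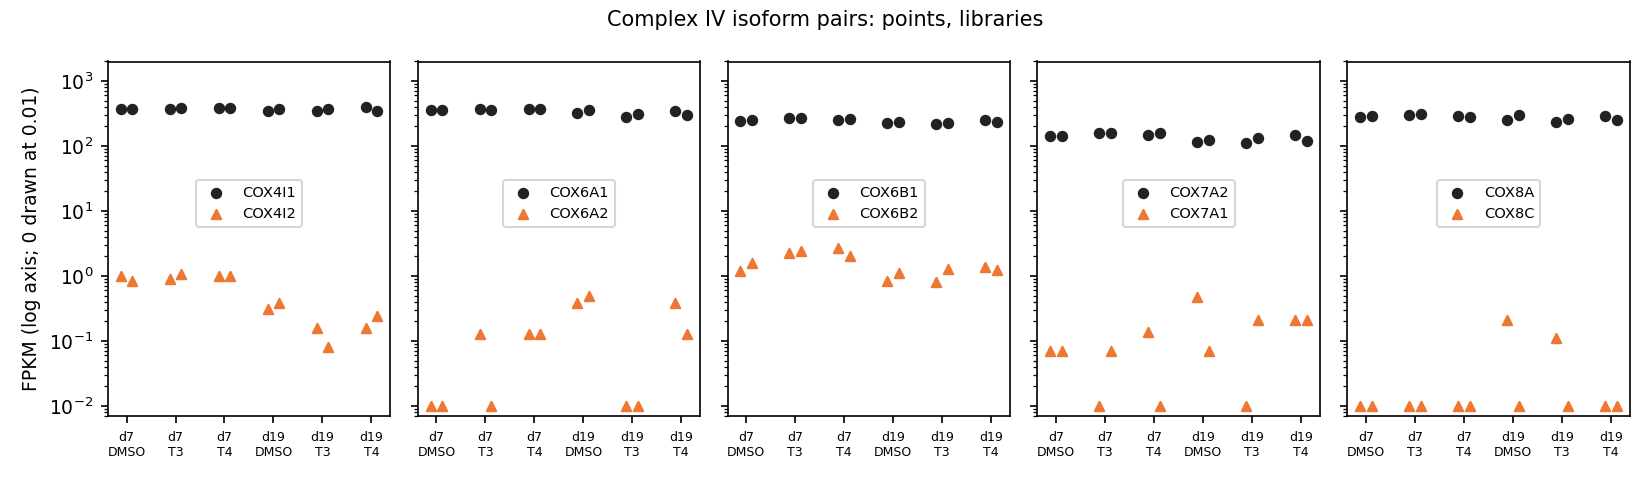
FPKM (log axis, a value of 0 drawn at 0.01) of the 5 pairs of complex IV isoform genes, with 1 point per library and the 6 groups along the horizontal axis. The broad forms (circles) lie at 110.1 FPKM or more and the tissue-restricted forms (triangles) at 2.66 FPKM or less in all 12 libraries.

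The 3 genes for the c subunit of ATP synthase, which encode the same mature protein of the rotor ring, were all expressed. ATP5MC2 lay at 121 to 281 FPKM, ATP5MC1 at 57.4 to 122 and ATP5MC3 at 49.6 to 90.9. In complex III and V, reads of near-identical copies could not be separated with certainty, and the copies were low: UQCRHL at 0.74 to 2.64 FPKM beside UQCRH, and ATP5MGL at 0.2 to 0.85 beside ATP5MG at 75.2 to 112. ATP5MF-PTCD1, a read-through of ATP5MF, had 0 counts in 6 libraries and 37 to 85 in the other 6, across groups, so no value is read from it.

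In DMSO, 3 of the 4 genes of complex II had higher levels at day 19 than at day 7. SDHB, the iron-sulfur subunit, was at 26.7 and 29.6 CPM at day 7 and at 83.4 and 87.4 CPM at day 19, a log2 fold change of 1.60 ± 0.07 (SE, edgeR quasi-likelihood test, adjusted p = 1.87e-11) or 3.03-fold. SDHA, the flavoprotein that oxidises succinate, was at 65.4 and 65.5 CPM and then at 179 and 189 CPM, a log2 fold change of 1.49 ± 0.06 or 2.81-fold (adjusted p = 8.38e-12). SDHD, a membrane anchor, went from 74.4 and 70.7 to 109.5 and 121 CPM (0.67 ± 0.07, adjusted p = 3.89e-07). In each of the 3 genes both libraries of day 19 lay above both of day 7. SDHC, the other membrane anchor, was at 111 and 109 CPM and then at 105 and 104 CPM, a difference of -0.08 that did not pass the test (adjusted p = 0.197). Scaled by library totals alone, SDHC fell by 0.48 (adjusted p = 1.48e-06), whereas SDHA, SDHB and SDHD stayed higher under every scaling run and with any single library left out. Complex II took 1.53% ± 0.005 of the members' summed FPKM in DMSO at day 7 and 2.69% ± 0.06 at day 19 (SD, n = 2).

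**Figure D3:**
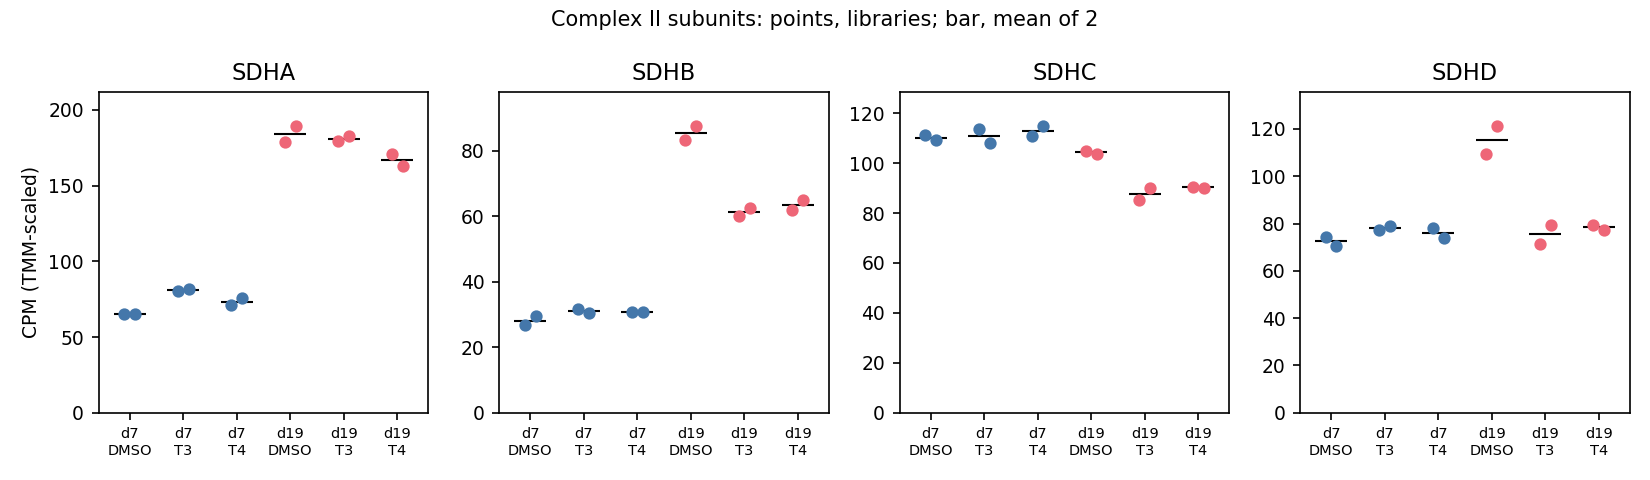
CPM (vertical axes, TMM-scaled, each from 0) of the 4 genes of complex II in the 12 libraries, with points for libraries and bars for the mean of 2. The DMSO libraries of day 19 lie above all 6 libraries of day 7 for SDHA, SDHB and SDHD, and with either hormone SDHB, SDHC and SDHD lie below DMSO at day 19.

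Over all members, 30 rose and 17 fell between the days in DMSO, 37% and 21% of the 81, where 72.4% of all tested genes were called, 37.6% higher and 34.9% lower. The share of members that rose was near that of all genes, and the median was 0.09 against -0.00. These counts rest on the scaling. Without TMM the median of all genes moved to -0.40 and 12 members were higher and 53 lower, while the members' median stayed 0.09 above that of all genes. The share of all genes called without TMM is not given here. The scalings run include limma on FPKM and removal of the length trend. Under all of them NDUFS6, NDUFB1 and UQCRH stayed called lower. Only 12 of the 30 higher and 14 of the 17 lower calls passed the test again in the same direction under all scalings. With each library left out in turn, 23 and 13 did.

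By complex, with no test between complexes, complex II had 3 of 4 higher and 0 lower (median 1.08), complex III 6 of 9 higher and 2 lower (0.53) and complex IV 7 of 13 higher and 1 lower (0.27). Complex I had 10 higher and 11 lower of 36 (0.06), and complex V 4 higher and 3 lower of 19 (0.02). Of the higher calls, UQCR10 and UQCRQ in complex III and COX5A and COX7A2L in complex IV were the ones that held under all scalings. COX7A2L went from 92.6 and 90.7 to 147 and 155 CPM (0.72 ± 0.06, adjusted p = 8.27e-08), and UQCR10, a small subunit of complex III, from 73.3 and 82.2 to 117 and 125 CPM (0.64 ± 0.08, adjusted p = 3.56e-06). In complex III, UQCRC1 and UQCRC2, the core proteins, rose by 0.53 and 0.34, UQCRQ by 0.60, UQCR11 by 0.54 and UQCRFS1, the Rieske iron-sulfur protein, by 0.23. The hinge protein UQCRH went the other way, from 154 and 151 to 88.4 and 103 CPM (-0.68 ± 0.07, adjusted p = 3.62e-07), as did UQCRB at -0.35. In complex IV the calls that rose were COX7A2L, COX5A (0.61), COX8A, COX4I1, COX7B, COX6A1 and COX6B1 (0.27 to 0.37), and COX7C fell by 0.19.

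Complex I, the largest, did not move one way. NDUFS7, NDUFV1 and NDUFS8, which belong to its electron-carrying arm, rose by 0.67, 0.66 and 0.47, as did NDUFA1 (0.70) and NDUFC2 (0.64) of the membrane arm. NDUFB7, NDUFS1, NDUFA7, NDUFA9 and NDUFA10 rose by 0.18 to 0.33. NDUFS6, an accessory subunit of the electron-carrying arm, fell from 79.4 and 80.2 to 43.5 and 48.8 CPM (-0.79 ± 0.08, adjusted p = 3.22e-07) and NDUFB1 of the membrane arm from 24.1 and 24.4 to 14.1 and 16.1 CPM (-0.68 ± 0.11, adjusted p = 3.97e-05). Both libraries of day 19 lay below both of day 7 for NDUFS6 and NDUFB1, which were picked as the largest falls in the same libraries. NDUFS6 overlaps MRPL36, which held 5814 counts over all libraries against 15966, and the strand of counting was not given. In all, 14 members overlap a gene that held over 10% of their own count, among them NDUFB11, NDUFC2 and ATP5PD. NDUFV2, NDUFS5, NDUFA12, NDUFS3, NDUFB2, NDUFC1, NDUFB9, NDUFB4 and NDUFB11 fell by 0.15 to 0.55. In complex V ATP5F1D, a subunit of the central stalk, rose by 0.58, and ATP5MK, ATP5F1A and ATP5F1B by 0.14 to 0.30. ATP5MC2 fell by 0.55, ATP5PO by 0.31 and ATP5MC1 by 0.27. ATP5MC3 had a difference of 0.03 (adjusted p = 0.689).

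**Figure D4:**
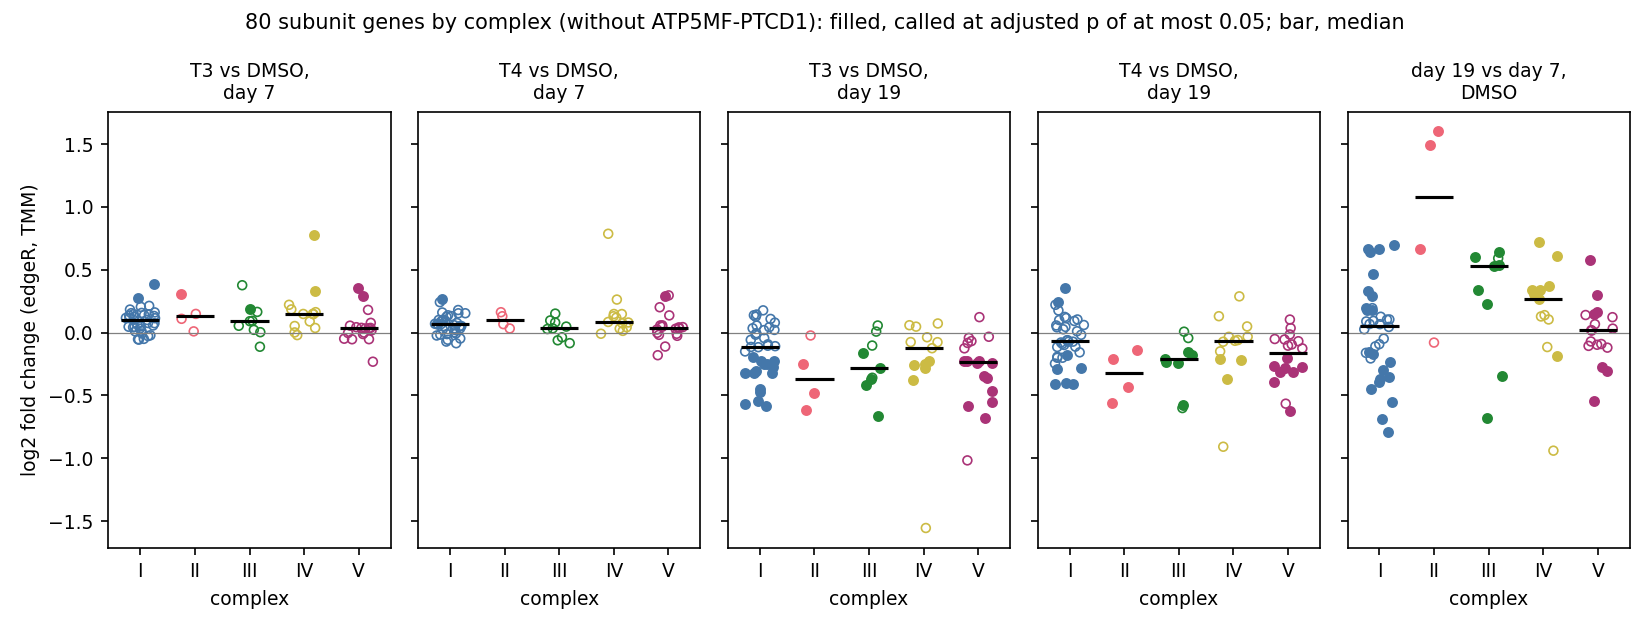
Log2 fold changes (edgeR, TMM) of 80 subunit genes (ATP5MF-PTCD1 left out) in 5 comparisons, by complex. Filled points passed an adjusted p of at most 0.05 and bars are medians of the genes drawn. Complex II stands highest for day 19 against day 7 in DMSO, with SDHB at 1.60 and SDHA at 1.49, and filled points lie below 0 in all 5 complexes with T3 at day 19.

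T3 at day 19 went with lower levels of many subunits. Of the 81 members 39 fell, or 48.1%, and 0 rose, where 52.3% of all tested genes were called, 25.1% higher and 27.3% lower. The members' median was -0.19 against -0.03 over all genes. The split depends in part on the scaling: by library totals alone 4 were higher and 25 lower, with the median of all genes at 0.05, and after the length trend of each library was removed 8 were higher and 35 lower. Shares of all genes called under these settings are not given here, so these counts do not show whether the members stand apart. Of the 39 genes, 24 stayed called lower under all scalings. Without T3 replicate 1, the library with the longest mean transcript length, 24 were lower and 1 higher.

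Among the called members ATP5F1A had the largest fall, from 739 and 788 CPM in DMSO to 462 and 488 CPM with T3, a log2 fold change of -0.68 ± 0.05 (SE, edgeR quasi-likelihood test, adjusted p = 4.61e-08). Its partner ATP5F1B, with which it forms the catalytic hexamer of ATP synthase, was at 669 and 714 CPM in DMSO and at 650.4 and 669 CPM with T3, and was not called. ATP5F1B overlaps BAZ2A, which held 44955 counts over all libraries against 146589. UQCR10 went from 117 and 125 CPM to 69.5 and 83.6 CPM (-0.66 ± 0.08, adjusted p = 6.04e-06). Both libraries lay below both DMSO libraries in ATP5F1A and in UQCR10. Because these genes were picked for their falls in the same libraries, this adds no separate support.

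In complex II, 3 of 4 genes fell with T3 at day 19. SDHD went from 109.5 and 121 to 71.3 and 79.5 CPM, which reached the levels of 74.4 and 70.7 CPM in DMSO at day 7 (-0.61 ± 0.07, adjusted p = 2.46e-06). SDHB went from 83.4 and 87.4 to 60.1 and 62.4 CPM (-0.48 ± 0.06, adjusted p = 1.3e-05), which stayed above the 26.7 and 29.6 CPM of day 7. SDHC went from 105 and 104 to 85.4 and 89.8 CPM (-0.25 ± 0.05, adjusted p = 0.00131). SDHA was at 179 and 189 CPM in DMSO and at 179.6 and 182 CPM with T3, and its difference of -0.02 did not pass the test (adjusted p = 0.757). By library totals alone this difference was 0.05, also not called. The groups did not overlap in SDHB, SDHC and SDHD and did in SDHA. SDHA has 4 pseudogenes in the files whose reads could be confused with its own, with 1709 to 4046 counts each over all libraries against 27086 for SDHA. As a share of the members' summed FPKM, complex II was at 2.69% ± 0.06 in DMSO and 2.41% ± 0.03 with T3, and complex V at 29.2% ± 0.03 and 27.3% ± 0.26 (SD, n = 2).

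The other complexes fell in part. In complex I 15 of 36 fell (median -0.11), with NDUFA2 from 70.8 and 75.5 to 45.5 and 52.4 CPM (-0.58 ± 0.08, adjusted p = 1.38e-05), NDUFB6 at -0.57 and NDUFC1 at -0.54. NDUFA2 overlaps TMCO6 (3574 counts against 15337) and NDUFC1 overlaps NAA15 (11721 against 6565). The other 12 were NDUFB7, NDUFB5, NDUFS1, NDUFA5, NDUFB11, NDUFB3, NDUFA7, NDUFB10, NDUFA1, NDUFB8, NDUFA3 and NDUFB9, at -0.47 to -0.19. In complex III 5 of 9 fell (median -0.28): UQCR10, UQCRQ, UQCR11, UQCRB and UQCRFS1. In complex IV 5 of 13 fell (median -0.12): COX7A2L at -0.37 and COX6A1, COX7C, COX6C and COX8A at -0.28 to -0.23. In complex V 11 of 19 fell (median -0.23): ATP5F1A, ATP5F1E, ATP5ME, ATP5MC3, ATP5PF, ATP5PO, ATP5MC2, ATP5MF, ATP5MG, ATP5F1C and ATP5MJ. These include subunits of the head, the stalks, the rotor ring and the membrane part.

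T4 at day 19, measured against the same DMSO libraries, had 27 members lower and 2 higher, 33.3% and 2.47%, where 42.8% of all genes were called, 21% higher and 21.9% lower. The members' median was -0.10 against 0.00, and by library totals alone, which moved the median of all genes to 0.13, the split turned to 12 higher and 11 lower. How many of all genes were called under that setting is not given here. Only 8 of the 27 kept their call under all scalings: ATP5F1A, COX7A2L, NDUFA2, NDUFB5, NDUFS1, SDHB, SDHD and UQCR10. Without T4 replicate 2, 13 were lower and 2 higher, and without DMSO replicate 2 14 were lower and 6 higher. By complex, 6 were lower and 2 higher in I, 4 lower in II, 6 in III, 3 in IV and 8 in V.

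The genes with the largest falls with T4 had levels close to those with T3. ATP5F1A was at 499.8 and 490.1 CPM (-0.62 ± 0.05 against DMSO, adjusted p = 2.31e-07), UQCR10 at 81.4 and 81.1 CPM (-0.57 ± 0.08, adjusted p = 3.43e-05), SDHD at 79.2 and 77.5 CPM (-0.56 ± 0.07, adjusted p = 9.72e-06) and SDHB at 61.9 and 64.9 CPM (-0.43 ± 0.06, adjusted p = 5.41e-05). All 8 values lay below the DMSO libraries of day 19, which adds no separate support for genes picked by their falls. SDHC was at 90.6 and 90.0 CPM (-0.21, adjusted p = 0.00638), a call lost by library totals alone (adjusted p = 0.283). SDHA was at 171 and 163 CPM (-0.14, adjusted p = 0.0489), and this call was lost by library totals alone (adjusted p = 0.889) and with some libraries left out (up to 0.232). COX7A2L was at 123 and 111 CPM (-0.37, adjusted p = 0.000233).

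NDUFS6 and NDUFA11 of complex I were the members that rose. NDUFS6 was at 43.5 and 48.8 CPM in DMSO, 47.9 and 56.4 with T3 and 61.6 and 56.5 with T4 (0.36 ± 0.08 for T4, adjusted p = 0.00226), so both T4 libraries lay above DMSO. NDUFA11 was at 91.7 and 109.7 CPM in DMSO and at 131 and 107 CPM with T4, which overlap, and its call (0.24, adjusted p = 0.0432) was lost without T4 replicate 1 (adjusted p = 0.486).

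The hormones were also set against each other at equal dose, once on each day. At day 7, 0 of 81 members were called between T4 and T3, where 0.365% of all genes were, 0.0387% higher and 0.326% lower (1 member had an unadjusted p under 0.05, and DESeq2 and limma also called 0). At day 19, 2 members were higher with T4 than with T3, 2.47% against 7.42% of all genes, where 15.7% were called in all and 8.31% were lower. NDUFC1 was at 17.9 and 18.6 CPM with T3 and 23.3 and 20.5 with T4 (0.26 ± 0.08, adjusted p = 0.0374), and ATP5ME, a membrane subunit of ATP synthase, at 48.3 and 50.2 and then 62.5 and 56.1 CPM (0.27 ± 0.07, adjusted p = 0.0256). Both calls were lost with DESeq2 (adjusted p = 0.253 and 0.0881), and 0 members were called without T3 replicate 1 or without T4 replicate 1. For the 8 called members that fell most with T3, the 95% interval of the log2 difference between T4 and T3 was -0.05 to 0.17 for ATP5F1A, -0.09 to 0.26 for UQCR10, -0.09 to 0.20 for SDHD, -0.02 to 0.41 for ATP5F1E, 0.01 to 0.34 for NDUFA2, 0.03 to 0.62 for NDUFB6, 0.11 to 0.43 for ATP5ME and 0.09 to 0.44 for NDUFC1. All 8 estimates were above 0, and those of ATP5ME and NDUFC1 passed the adjusted test. Because the 8 were picked for their fall in the same T3 libraries, the choice itself favored estimates above 0. Nothing is read from their shared sign. Of all 81 members, 62 had an estimate above 0 (median 0.07). The differences of the 2 hormones from DMSO share the DMSO libraries and are not independent.

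At day 7 the hormone effects on the members were small in size. The shared fit takes its spread from both days, and fits of day 7 alone called more members with each hormone, as given at the end. With T3 8 members rose and 0 fell, 9.88% of the 81, where 16% of all genes were called, 9.43% higher and 6.54% lower, so the share was near that of all genes (median 0.08 against 0.01). SDHA was at 65.4 and 65.5 CPM in DMSO and 80.4 and 81.9 CPM with T3 (0.31 ± 0.06, adjusted p = 0.00217). NDUFS7, which carries an iron-sulfur cluster next to the quinone site of complex I, was at 41.5 and 43.1 and then at 57.2 and 53.5 CPM (0.39 ± 0.07, adjusted p = 0.00223). ATP5MC1 was at 46.7 and 47.1 and then at 62.9 and 57.0 CPM (0.35 ± 0.07, adjusted p = 0.0046). In these 3 genes the T3 libraries lay above the DMSO libraries, and SDHA and NDUFS7 kept their call with any library left out. ATP5PD, COX7B, NDUFA7 and UQCRC1 rose by 0.18 to 0.33. COX6B2, at 1.78 and 2.36 CPM in DMSO and 3.38 and 3.72 with T3, had the largest change at 0.78 ± 0.24 (adjusted p = 0.041), a call lost without any 1 of the 4 libraries (adjusted p = 0.0743 to 0.271) and with DESeq2 (0.203).

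With T4 at day 7, 2 members rose and 0 fell, where 6.42% of all genes were called, 3.9% higher and 2.52% lower. NDUFS7 was at 52.4 and 49.5 CPM (0.27 ± 0.07, adjusted p = 0.0417) and ATP5MC1 at 55.8 and 59.1 CPM (0.29 ± 0.07, adjusted p = 0.0288). The 4 values lay above DMSO, but both calls were lost with any library left out. SDHA, at 70.9 and 75.6 CPM, had a difference of 0.16 that did not pass the test (adjusted p = 0.12). Its 95% interval for T4 against T3 at day 7 was -0.27 to -0.02 on the log2 scale (adjusted p = 0.572).

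The hormone effects of day 19 and day 7 were compared by an interaction term. With T3 36 members had a lower effect at day 19 than at day 7 and 0 a higher one, 44.4% of the 81, where 38% of all genes were called and 20.9% were lower (median -0.27 against -0.04). With T4 22 were lower and 0 higher, 27.2%, where 27.7% were called and 15.3% were lower (median -0.19 against -0.01). By library totals alone these counts were 19 lower for T3, and 6 lower and 3 higher for T4, without the shares of all genes called under that setting. All 4 genes of complex II were among the calls with each hormone. SDHD had -0.72 and -0.63, SDHB -0.63 and -0.56, SDHA -0.33 and -0.30 and SDHC -0.26 and -0.24 for T3 and T4. SDHA thus differed between the days, having risen with T3 at day 7 and not at day 19. The SDHC terms and the T4 term of SDHA were lost by library totals alone and with some single libraries left out (adjusted p up to 0.0695 and 0.12 for SDHC with T3 and T4, and 0.0704 for SDHA with T4). UQCR10 (-0.75 and -0.62), NDUFA2 (-0.71 and -0.49) and ATP5F1A (-0.63 and -0.60) kept their calls for both hormones under all scalings and with each library left out.

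**Figure D5:**
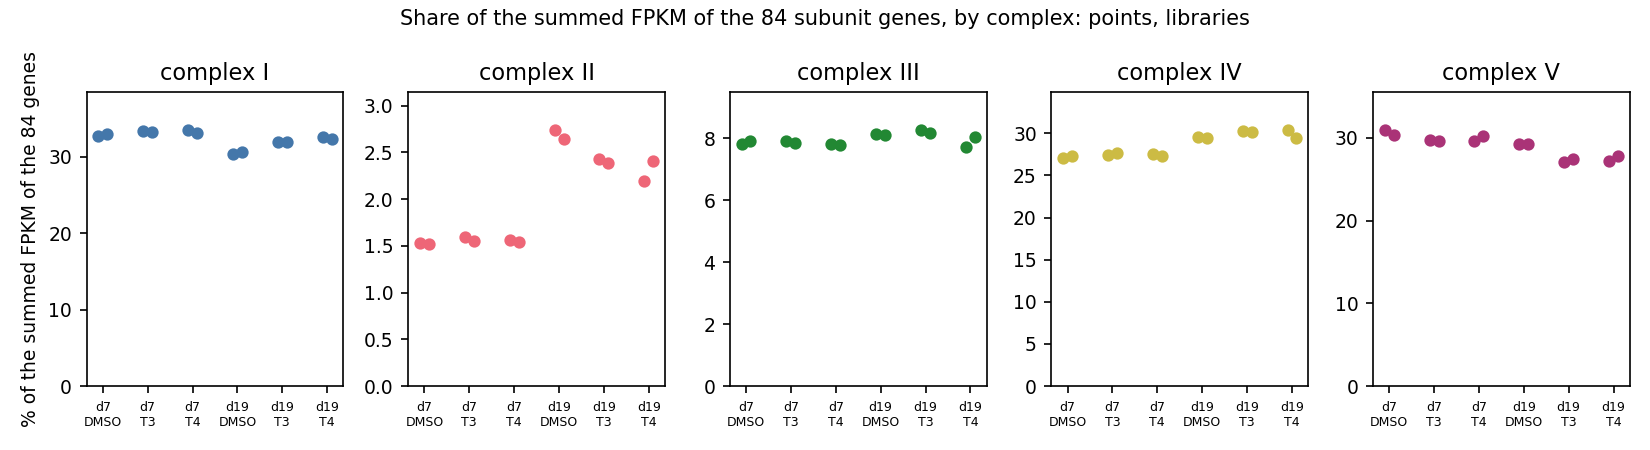
Share of each complex in the summed FPKM of the 84 subunit genes (vertical axes, percent, each from 0), 1 point per library in the 6 groups. Complex II lies at 1.52% to 1.60% at day 7, at 2.65% and 2.73% in DMSO at day 19 and at 2.20% to 2.43% with hormone at day 19.

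Genes that act with the subunits moved in their own ways. Of all tested genes, 37.6% rose and 34.9% fell between the days in DMSO, and 25.1% rose and 27.3% fell with T3 at day 19. Of 14 citric acid cycle genes, 9 (64.3%) rose and 0 fell between the days, and with T3 at day 19 2 (14.3%) rose and 5 (35.7%) fell. SUCLG1 and SUCLG2, subunits of succinyl-CoA ligase, which makes the succinate that complex II oxidises, rose and fell in the same comparisons as SDHB. SUCLG1 was at 56.7 and 54.0 CPM in DMSO at day 7, at 134 and 153 at day 19 and at 63.1 and 69.3 with T3 at day 19, and SUCLG2 at 46.3 and 44.2, 99.1 and 93.5, and 43.4 and 47.4 CPM. They were chosen after their values were seen, and SUCLA2, another subunit in the same list, is not reported here. Of 50 assembly factors, proteins that build the complexes without remaining in them, 11 rose and 24 fell between the days (22% and 48%), 5 rose and 13 fell with T3 at day 19 (10% and 26%), and 5 rose and 12 fell with T4 (10% and 24%, against 21% and 21.9% of all genes). The share that fell with T3 was near that of all genes. The factors of complex IV, 20 of the 50, held 9 of the 13 falls with T3 and 2 of the 5 rises. The falls were led by COX19 (-0.87), COA3 (-0.76) and TACO1 (-0.69). SDHAF1, which assists the maturation of SDHB, rose by 0.66 between the days and fell by 0.43 with T3 and by 0.44 with T4 at day 19. The list of complex II did not follow it: of 4 factors, 1 was called higher and 2 lower between the days (median -0.22). With each hormone at day 19, 1 of the 4 was called lower and 0 higher.

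Among 15 regulators of mitochondrial genes, 4 rose and 8 fell between the days (26.7% and 53.3%, against 37.6% and 34.9% of all genes), and 5 rose and 4 fell with T3 at day 19 (33.3% and 26.7%, near the 25.1% and 27.3% of all genes). PPARGC1A was at 1.30 and 1.20 CPM in DMSO at day 7, at 7.03 and 6.07 at day 19 (2.38, adjusted p = 6.13e-08) and at 4.19 and 4.89 with T3 at day 19 (-0.53, adjusted p = 0.0188). NRF1 fell by 0.95 and TFAM, which packages and transcribes mitochondrial DNA, by 1.22 between the days. The nuclear receptors ESRRG and ESRRA rose by 2.25 and 0.74 with T3 at day 19. Of 77 genes of the mitochondrial ribosome, 14 rose and 40 fell between the days (18.2% and 51.9%), and 12 rose and 24 fell with T3 at day 19 (15.6% and 31.2%). Cytosolic ribosomal protein genes, also short and abundant, had 1 of 82 higher and 79 lower between the days (1.22% and 96.3%) and 21 higher and 2 lower with T3 at day 19 (25.6% and 2.44%). Of 37 proteasome subunits, 27 (73%) rose and 0 fell with T3 at day 19. The members were not tested against these lists.

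Splice forms also differed between groups for some members, as far as the deposited division of reads among transcripts allows. For ATP5F1C, the gamma subunit of the central stalk, the main form took 86.3% to 93.4% of the gene's counts at day 7, 70.4% and 70.6% in DMSO at day 19 and 82.9% to 90.8% with hormone at day 19. For UQCRH the longer, minor form took 7.06% to 9.70% at day 7, 22.4% and 24.2% in DMSO at day 19 and 15.6% to 18.3% with hormone. In both genes the DMSO libraries of day 19 lay outside the range of all other libraries. These shares were not tested. Of the 81 tested members, 13 were called in none of the 9 contrasts, among them NDUFA13, UQCRHL, COX4I2, COX5B, COX7A2, ATP5MGL and ATP5PB. The 13 include ATP5MF-PTCD1, from which no value is read, and UQCRHL, COX4I2 and ATP5MGL had low levels. The share of all tested genes called in no contrast is not given here, so nothing about the members is read from this count.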

How the data were processed

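Total RNA of 12 libraries was sequenced. The authors deposited a transcript table for each library with RSEM expected counts and FPKM values. The submitters' processing notes name hg38, HISAT, Bowtie2 and RSEM without versions, and the strand of counting is not given in the sources used here. Deposited expected counts, which are estimated and not normalised, were summed per Entrez gene and rounded (pandas 2.3.3, numpy 2.4.6). Deposited FPKM values, scaled by the authors to length and mapped reads, gave levels between genes. Of 23922 genes, 23801 matched RefSeq and 121 did not (0.103% to 0.145% of counts).

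Tests used edgeR 4.0.16 in R 4.3.3: filterByExpr, TMM, a single quasi-likelihood fit of 12 libraries in which each group had its own mean, no replicate block and 6 residual degrees of freedom, common biological coefficient of variation 5.42%, and Benjamini-Hochberg adjustment over 18101 genes. A gene was called at an adjusted p of at most 0.05, two-sided. Replicates differed by a chi-square per gene of 1.585 to 2.10 (day 7) and 4.96 to 8.63 (day 19). The shared fit thus understates the spread of day 19 and overstates that of day 7. Totals of 18363549 to 19306181 counts set the counting error. Alternatives were RLE factors, library totals, removal of the 10 most abundant genes, no filter, same-day fits, a replicate block, DESeq2 1.42.0, limma 3.58.1 on log2(FPKM + 0.1 or 1) of genes with an FPKM of 1 in at least 2 libraries, each library left out, and a 1.5-fold minimum. Removal of a length trend (lowess, span 0.3) and a crossed block were chosen after seeing the data. The fit was tested on simulated data.

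The members and gene lists were chosen with earlier results of these data known. Members named with values were the 3 largest and 3 smallest changes of a contrast, isoform pairs, complex II, the most and least abundant gene of each complex and the 3 smallest p of an interaction. Others named were chosen after their values were seen. For a gene picked by its change, groups that do not overlap add no separate support. The share of all genes whose groups did not overlap was not computed. Results of some members are not reported here. Motifs were searched on both strands of RefSeq windows (GRCh38.p14).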

Additional observations from a re-analysis of the deposited data

Results flagged for a closer look

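Hormone effects that differed between the days by an interaction test (edgeR, all 12 libraries) were singled out. With T3, 36 members were called, all with a lower effect at day 19 than at day 7, where 38% of all genes were called and 20.9% were lower. The log2 differences were -0.75 for UQCR10, -0.72 for SDHD, -0.71 for NDUFA2, -0.63 for ATP5F1A, -0.63 for SDHB, -0.33 for SDHA and -0.26 for SDHC. With T4, 22 members were called, also all lower, where 27.7% of all genes were called and 15.3% were lower, with -0.63 for SDHD, -0.62 for UQCR10, -0.60 for ATP5F1A, -0.56 for SDHB, -0.30 for SDHA and -0.24 for SDHC. Library totals alone gave 19 lower for T3, and 6 lower and 3 higher for T4, and lost the SDHC terms and the T4 term of SDHA. Shares of all genes under library totals are not given here. Hepatocyte markers were also lower with each hormone at day 19, and their part in these values was not tested. Groups of 2 libraries were too small for a search for libraries that stand apart.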

How the results depend on the processing

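The counts of members called moved by over 1.5 times under these settings, in the order T3 at day 7 (8), T4 at day 7 (2), T4 against T3 at day 19 (2), the T3 interaction (36) and the T4 interaction (22). Library totals alone gave 5, 1, 6, 19 and 9, and limma on FPKM 4 or 5, 0, 5, 19 and 7. DESeq2 gave 0 for T4 at day 7, 0 for T4 against T3 and 10 for the T4 interaction, and no filter on low counts gave 1 for each of the first 2 of these. RLE factors gave 1 for T4 against T3, and removal of the length trend 5 for T4 at day 7. Fits of the same day alone gave 25 with T3 (22 higher, 3 lower) and 18 with T4 at day 7 (17 and 1), 16 with T4 at day 19 against 29, and 0 for T4 against T3. With a minimum of 1.5-fold, members called were 1 and 0 at day 7, 4 with T3 and 1 with T4 at day 19, 0 between them, 14 between the days against 47, and 8 and 3 in the interactions. Leaving out 1 library gave 3 to 4 with T3 and 0 with T4 at day 7, 25 to 39 with T3, 15 to 33 with T4 and 0 to 9 between them at day 19, and 26 to 49 and 8 to 25 in the interactions. Shares of all genes called under these settings are not given here, so the counts do not show whether the members stand apart. The cause was not tested. A replicate block gave 1 for T4 against T3 at day 19. All other counts of members in these comparisons stayed within 1.5 times, and 0 members were called between T4 and T3 at day 7 under every setting.

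Among the members named by rule, signs turned only for differences that had not passed the test. SDHA with T3 at day 19 was 0.0226 with RLE factors, 0.0538 with library totals, 0.0238 with DESeq2, 0.0571 and 0.0562 with limma, -0.0625 to 0.0170 with a library left out (0.0170 without DMSO replicate 2) and 0.0118 without the length trend. SDHC with T3 at day 7 was -0.0260 with library totals, -0.00154 in the fit of that day, -0.0273 and -0.0267 with limma, -0.000211 without DMSO replicate 2 and -0.0243 without T3 replicate 1.

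Replicate numbers are shared by the groups, but the labels do not say what they mark. Deviations of same-numbered libraries correlated at 0.247 (DMSO and T3), 0.049 (T3 and T4) and -0.188 (DMSO and T4) at day 19, so the numbers were not taken as pairs. With a replicate block, members called were 6, 2, 0, 39, 28, 1, 45, 38 and 19 for T3, T4 and T4 against T3 at day 7, the same at day 19, the days in DMSO and the interactions. With the T4 numbers of day 19 crossed, 32 were called with T4. With 2 libraries per group and at most 19306181 counts each, differences of low genes were imprecise, as for COX4I2 with T3 at day 19 (log2 -1.55, SE 0.73).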
